A study of Mus musculus with 2 samples.

Results

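The S100a8/S100a9-high cells were 60 of the 608 kept cells (9.87%) of the Renilla library, a single-cell RNA library of cultured mouse leukaemia cells that carry the MLL-AF9 fusion and Cas9. They were chosen by their own counts of unique molecular identifiers (UMIs, tags that mark single RNA molecules). Each kept cell was ranked by the share of its UMIs that came from S100a8 and S100a9, and the top 10% were taken. They are set against the 484 kept Renilla cells (79.6%) with no UMI of either gene. The other 64 cells carried a UMI but ranked below the last cell taken, and are given as an intermediate group. Renilla cells carried a single guide RNA against Renilla luciferase, a sequence the mouse genome lacks, as the control. The series' other library, Jumonji, came from the same kind of cells with a guide against the Jumonji domain of JMJD1C, a chromatin protein named for that domain. Both cultures were grown in RPMI medium with serum and mouse interleukin-3, and the source is given as a primary mouse leukaemia. Strain, age and the number of animals or clones behind each culture were not given in the sources used here. Each library is 1 sample, so cells were not treated as replicates, no test was made, and all intervals (95%) cover counting error only.

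S100a8 and S100a9 encode small calcium-binding proteins that pair to form calprotectin, an abundant cytosolic protein of neutrophils and monocytes. As a granulocyte matures, the promyelocyte first makes the proteins of primary granules, such as myeloperoxidase and neutrophil elastase. Later stages stop making these and turn to secondary and tertiary granule proteins, such as cathelicidin, neutrophilic granule protein, lipocalin 2 and lactoferrin. MLL-AF9 is an oncogenic fusion that holds myeloid progenitors in a proliferating, immature state. A high level of calprotectin RNA is a commonly used sign that such a cell has moved towards the granulocyte or monocyte fate.

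S100a8 (ENSMUSG00000056054, chr3:90668978-90670035, plus strand, mm10) and S100a9 (ENSMUSG00000056071, chr3:90692632-90695721, minus strand) lie near each other on chromosome 3. Ngp, the gene with the highest lower interval bound in the comparison below, had UMIs in 11 of the 60 high cells. The sequences just upstream of S100a8, S100a9 and Ngp are shown. They are from RefSeq's promoter table on GRCm38.p6 and run 5′ to 3′ on the gene's own strand. The capitals mark matches to 2 motifs that were searched on both strands, TTGCNNAA for C/EBP factors and GAGGAAGT for PU.1, both of them transcription factors of the myeloid lineage. The S100a8 window is chr3:90668821-90668977, the S100a9 window is chr3:90695722-90695971 and the Ngp window is chr9:110419558-110419746. Windows stop where the GENCODE M21 gene begins.
S100a8: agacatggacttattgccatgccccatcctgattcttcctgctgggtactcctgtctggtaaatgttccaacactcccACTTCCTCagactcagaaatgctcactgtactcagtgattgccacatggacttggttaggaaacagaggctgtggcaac
S100a9: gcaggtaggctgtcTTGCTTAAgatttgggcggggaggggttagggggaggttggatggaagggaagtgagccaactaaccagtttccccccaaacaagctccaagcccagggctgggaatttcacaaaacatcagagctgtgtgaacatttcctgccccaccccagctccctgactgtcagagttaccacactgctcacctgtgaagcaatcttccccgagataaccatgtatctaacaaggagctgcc
Ngp: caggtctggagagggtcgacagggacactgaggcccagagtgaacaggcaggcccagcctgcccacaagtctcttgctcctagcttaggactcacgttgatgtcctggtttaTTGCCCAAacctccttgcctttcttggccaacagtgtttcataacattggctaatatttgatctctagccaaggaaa
S100a8 holds a PU.1 match on its opposite strand, 172 bases before the RefSeq start. S100a9 holds a C/EBP match 236 bases before its start, and Ngp holds a C/EBP match 138 bases before its start. Of the 17 genes formed by this pair and the 15 higher genes named below, 13 were found in the table, and over the full 250 bases upstream 4 held a C/EBP match and 3 a PU.1 match. Over all 32851 promoters in the table, 9.56% held the C/EBP letters and 2.44% the PU.1 letters in a window of this length. A match is a run of letters and not a site known to be bound.

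The calprotectin RNA of the Renilla library was concentrated in very few cells. The 60 high cells held 1465 of the library's 1529 S100a8 and S100a9 UMIs (95.8%), and 10 of them held 88.5% of that. In order of score these 10 cells carried 381, 219, 129, 115, 77, 126, 89, 67, 52 and 42 UMIs of the pair. No kept cell had between 20 and 41. Another 10 high cells carried 4 to 19 UMIs, and the remaining 40 carried 1 to 3, so most of the cells chosen differ from the rest by only a few molecules. The split at 40 UMIs was made after this gap was seen. The variance of the pair's UMIs over all 608 cells was 170 times their mean, where counts spread evenly would give about 1.

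**Figure D1:**
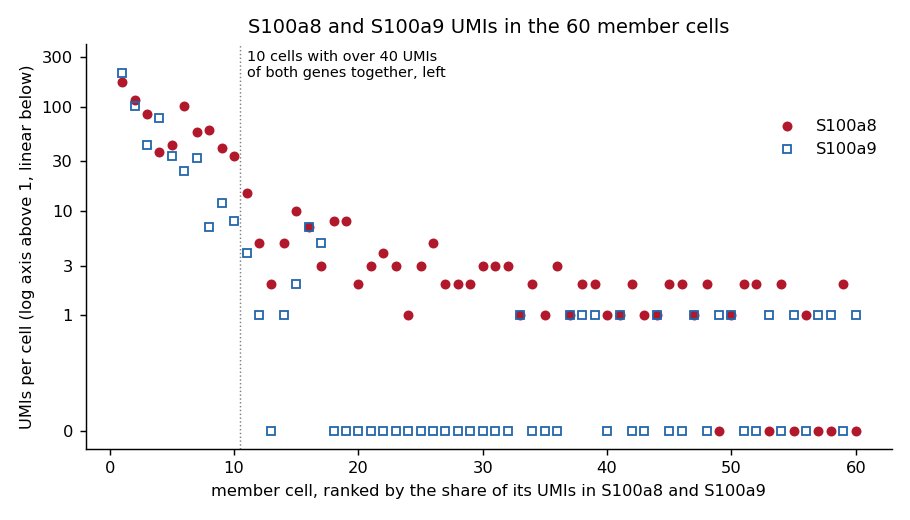
S100a8 (filled) and S100a9 (open) UMIs in each of the 60 S100a8/S100a9-high Renilla cells, ranked by the share of the cell's UMIs in both genes. The 10 cells left of the dotted line carried 42 to 381 UMIs of the pair, and the others 19 or fewer.

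The last cell taken had 1 UMI of the pair among 19779 (50.6 CPM, UMIs scaled to a total of 1000000), and the first cell not taken had 1 among 20300 (49.3 CPM). All 64 intermediate cells carried exactly 1 UMI, and 11 of the high cells did too. The difference there was depth: the 11 high cells with 1 UMI had a median of 14700 UMIs in all, and the 64 intermediate cells 28266.5. The median was 19742.5 for all high cells, 17406 for the 10 cells over 40 UMIs and 23275.5 for the cells without a UMI. The median mitochondrial share was 3.46% in the high cells, 2.81% in the 10 cells over 40 UMIs and 3.45% in the cells without a UMI, but 5.32% in the 11 high cells with 1 UMI. The library held no cell type that should lack these genes, so the level that free RNA gives was not measured.

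S100a8 was the more abundant of the pair in summed UMIs, and its lead there differed with the level. S100a8 stood at 695 CPM (650 to 743) over the summed UMIs of the high cells and S100a9 at 461 CPM (424 to 500). In the 10 cells over 40 UMIs, S100a9 gave 42.4% of the pair's UMIs (39.7 to 45.1). It gave 22.2% (14.1 to 32.2) in the cells with 4 to 19 UMIs, 17.9% (10.2 to 28.3) in those with 1 to 3, and 28.1% (17.6 to 40.8) in the intermediate cells. In summed UMIs the cells over 40 UMIs held relatively more S100a9 than the cells with 4 to 19 or 1 to 3. Single cells varied widely: S100a9 gave 210 of 381 and 78 of 115 UMIs in the cells ranked 1 and 4. It gave 24 of 126, 7 of 67, 12 of 52 and 8 of 42 in those ranked 6, 8, 9 and 10. The intervals do not cover that spread between cells. Per cell, the S100a9 counts of the 10 cells ran from 7 to 210 and the S100a8 counts from 34 to 171, and S100a9 was the higher of the pair in the cells ranked 1 and 4. Of the 100 kept cells with a UMI of S100a8, 24 also had one of S100a9 (24%, 16 to 33.6), against 24 of 508 cells without S100a8 (4.72%, 3.05 to 6.95). Their median depths were close, at 24857 and 23359.5 UMIs.

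Among the other genes, those with at least 50 UMIs over both groups of cells were compared as the log2 ratio of CPM, high cells over cells without a UMI. Of 8769 such genes, 143 (1.63%) were at least 2-fold higher and 300 (3.42%) at least 2-fold lower. Most of these had few UMIs: 113 of the 143 and 255 of the 300 had under 200. The interval left out a ratio of 1 for 133 of the higher genes but for only 143 of the lower ones, so counting error alone covers more than 1 in 2 of the lower genes. The median of all 8769 was -0.05. Because the cells were picked on their S100a8 and S100a9 counts in this same library, these differences describe the chosen cells. Genes were named by how far the nearer interval bound lay from 0.

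Ngp, Camp and Chil3, genes of maturing neutrophils, led the higher genes together with the stefin A family. Ngp (chr9:110419747-110423012), which encodes neutrophilic granule protein, had 290 UMIs in the high cells and 9 in the 484 cells without a calprotectin UMI. Its log2 ratio was 8.17 (7.23 to 9.32). In the 10 cells over 40 UMIs, Ngp counts were 160, 5, 0, 50, 37, 0, 2, 26, 0 and 3, in order of score. The first cell held 55.2% of the Ngp UMIs of all high cells, and 3 of the 10 cells held none. The other 50 high cells held only 7.

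Camp (chr9:109847379-109849617), the gene of the antimicrobial peptide cathelicidin, was still more uneven. It had 209 UMIs in the high cells against 10, a log2 ratio of 7.55 (6.64 to 8.63), and the first cell alone held 78.0% of them. Camp counts in the 10 cells were 163, 1, 0, 27, 6, 2, 0, 0, 1 and 0, so the level rests mainly on 2 cells that were also high for Ngp. Chil3, which encodes the chitinase-like protein Ym1, was spread more evenly, with counts of 3, 8, 0, 13, 8, 1, 6, 0, 3 and 0 and a log2 ratio of 5.72 (4.62 to 7.01). Lcn2, the lipocalin that binds bacterial siderophores, fell short of the count minimum with 17 UMIs in each group of cells. It was found in 8 of the 10 cells over 40 UMIs, at 1 to 3 UMIs each, and in none of the 40 cells with 1 to 3 calprotectin UMIs.

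Of 32 genes on a list of secondary and tertiary granule genes, 11 were measured, and 9 of them were at least 1.5-fold higher and none that much lower. Over all genes tested, 6.28% were at least 1.5-fold higher and 10.2% at least 1.5-fold lower. Ngp, Camp, Chil3, Wfdc21 and Lrg1 had only 9, 10, 8, 18 and 38 UMIs in the cells without a calprotectin UMI. They reached the minimum of 50 UMIs only through the high cells, so they could be measured only if they were higher. The count of 9 was thus partly set by that minimum, and 12 of the 32 list genes had no UMI in the high cells. The list's median log2 ratio was 1.54, or 0.87 without the 10 cells over 40 UMIs. The second median is over fewer genes, since Ngp, Camp, Chil3 and Wfdc21 fell below the count minimum without those cells. Besides Ngp, Camp and Chil3 the higher members were Wfdc21 at 4.38 (3.56 to 5.27), Lrg1 at 2.5 (1.70 to 3.27), Anxa1 at 1.54 (1.05 to 2.01), Ltb4r1 at 1.49 (1.11 to 1.85), Pglyrp1 at 1.42 (1.23 to 1.61) and Hp at 0.59 (0.46 to 0.72). Anxa1 encodes annexin A1, Ltb4r1 a leukotriene B4 receptor, Pglyrp1 a peptidoglycan recognition protein of granules and Hp haptoglobin. The 2 members short of 1.5-fold were Cyba at 0.48 (0.41 to 0.54) and Lyz2, lysozyme, at -0.16 (-0.52 to 0.18). Pglyrp1 was found in 50 of 60 high cells and stood at 706 CPM in the 10 cells over 40 UMIs against 87.5 CPM in cells without a calprotectin UMI.

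Other neutrophil markers were at or near 0. Ltf (lactoferrin), a secondary granule gene like Ngp and Camp, and Retnlg had no UMI in the high cells or in the cells without a calprotectin UMI. Mmp8, Cd177 and Cxcr2 had none in the high cells and 5, 5 and 7 UMIs in the cells without, and Ly6g had 1 UMI in 1 high cell. A count of 0 in the 1267261 UMIs of the high cells allows up to 3 counts, so levels under that were not detectable. Of the 9 neutrophil markers set for the comparison, 5 were at 0 in the high cells and 4 (Camp, Ngp, Lcn2 and Ly6g) were not. Their summed level ran from 0 to 17523 CPM over single high cells with a median of 0, and from 103 to 17523 CPM with a median of 402 in the 10 cells over 40 UMIs. Ngp and Camp also stood above the cells without a calprotectin UMI in the cells with 4 to 19, at 21.5 CPM each (7.89 to 46.8) in 3 of 10 cells. Camp stood at 16.1 CPM (10.8 to 23.1) in the intermediate cells, where 19 of its 29 UMIs lay in 1 cell. The name neutrophil was not given to the 60 cells as a group.

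The stefin A genes, a family of cytosolic cysteine protease inhibitors in a cluster on chromosome 16, stood high along with calprotectin. BC100530 (chr16:36359382-36367748) stood at 811 CPM against 7.23, a log2 ratio of 6.81 (6.49 to 7.15). Stfa1 (chr16:36276951-36285373) stood at 842 CPM against 39.7, a log2 ratio of 4.41 (4.25 to 4.57). Gm5483, which the naming rule leaves out for its symbol and which was added after its values were seen, had a log2 ratio of 6.30. Stfa2 had 69 UMIs against 1, of which 67 lay in the first cell. Because the copies are almost the same in sequence, how UMIs divide among them is uncertain.

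Unlike Ngp, BC100530 had UMIs in all 10 cells over 40 UMIs, and the summed levels of both it and Stfa1 were above those of the cells without a UMI at low calprotectin counts too. BC100530 counts in the 10 cells were 205, 48, 49, 38, 95, 62, 88, 210, 29 and 60, and Stfa1 counts were 1, 68, 59, 0, 76, 13, 6, 38, 97 and 46. The cell with the most calprotectin thus had 1 Stfa1 UMI beside 205 of BC100530. BC100530 stood at 5118 CPM in the cells over 40 UMIs, 366 in those with 4 to 19, 51.5 in those with 1 to 3, 61.0 in the intermediate cells and 7.23 in the cells without a UMI. Stfa1 stood at 2339, 1796, 199, 152 and 39.7 CPM in the same order. The intermediate cells and the cells with 1 to 3 UMIs did not differ for BC100530 beyond their counting intervals, and both lay above the cells without. A few cells carried the level at 1 to 3 UMIs: BC100530 had UMIs in 9 of those 40 cells and Stfa1 in 16, and 61 of the 162 Stfa1 UMIs lay in 1 cell. After thinning to 10000 UMIs per cell, BC100530 was found in 13.9% of them (4.67 to 29.5) and in 6.10% of the cells without a calprotectin UMI (4.09 to 8.70), with overlapping intervals. When cells were ranked by the summed share of Stfa1, Stfa2, BC100530 and Gm5483 instead, the top 60 took in 27 of the 60 high cells (45.0%), all 10 of those over 40 UMIs among them, and 23 of the 484 cells without a UMI (4.75%).

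The 8 named higher genes not yet described had varied functions. Ly6c2, a surface protein of monocytes and immature granulocytes, stood at 1274 CPM (1212 to 1337) against 353 (342 to 364), a log2 ratio of 1.85 (1.77 to 1.94). Its counts in the 10 cells over 40 UMIs were 28, 5, 72, 15, 9, 91, 59, 53, 2 and 73. Ly6c2 was also above the other cells at low calprotectin counts, at 975 CPM in the cells with 1 to 3 UMIs and 403 CPM in the intermediate cells. No single cell decided it, since 56 of 60 high cells had a UMI and the highest held 5.82%. Cd33, a sialic acid-binding receptor of myeloid cells, followed at 1.91 (1.75 to 2.06) with UMIs in 50 of 60 cells. Clec4a2, a C-type lectin receptor, was at 2.71 (2.34 to 3.08), C3, the third complement component, at 2.55 (2.0 to 3.09), and Bcl2a1b, an anti-apoptotic BCL2 relative with near-identical copies, at 2.48 (1.99 to 2.95). Vcam1, an adhesion molecule, was at 3.16 (2.38 to 3.94), Mogat2, an acylglycerol acyltransferase, at 4.85 (3.93 to 5.88), and the transcription factor gene Sp9 at 2.73 (2.17 to 3.29). The Sp9 level did not follow calprotectin step by step, at 34.7 CPM in the cells over 40 UMIs, 68.1 in those with 4 to 19, 29.4 in those with 1 to 3 and 6.65 in the intermediate cells. Of 14 measured monocyte and macrophage genes 5 were at least 1.5-fold higher and 2 lower, with a median of 0.18. The lower ones were Apoe at -1.77 (-4.85 to 0.15) and the chemokine receptor gene Ccr2 at -1.22 (-2.08 to -0.48). Apoe had only 2 UMIs in the high cells, and its interval held 0. The shares over all genes tested were 6.28% higher and 10.2% lower.

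Without the 10 cells over 40 UMIs, 9 of the 15 named higher genes still had 50 UMIs, and all 9 remained at least 2-fold higher. The other 6, Ngp, Camp, Chil3, Stfa2, Mogat2 and Wfdc21, dropped below the count minimum. For the remaining 50 cells the log2 ratio was 4.19 for BC100530, 3.93 for Stfa1, 1.64 for Ly6c2 and 1.68 for Cd33. Of all 143 higher genes, 91 were also called in those 50 cells.

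The primary granule genes split into those that stood higher and those that stood lower. Of 13 measured, 2 were at least 1.5-fold higher and 4 at least 1.5-fold lower, with a median of -0.36. Elane (neutrophil elastase, chr10:79886247-79888215) stood at 2808 CPM against 1617, a log2 ratio of 0.80 (0.74 to 0.85), and all 60 high cells had UMIs of it. Ms4a3, a membrane protein of granulocyte progenitors, was at 0.67 (0.57 to 0.76), and Prtn3, proteinase 3, at 0.32 (0.26 to 0.38). Mpo, myeloperoxidase, was lower at -0.36 (-0.48 to -0.24) and Ctsg, cathepsin G, at -0.60 (-0.74 to -0.47). Calr, a chaperone that Mpo needs for folding, was at -0.63 (-0.73 to -0.54), Plac8 at -0.61 (-0.66 to -0.55) and Nkg7, a granule membrane protein, at -1.03 (-1.80 to -0.34).

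In the 10 cells over 40 UMIs the same split was wider. Elane reached 3815 CPM there and Prtn3 2709, while Mpo stood at 423 CPM and Ctsg at 145, against 632 and 588 in the cells without a calprotectin UMI. These 10 cells did not share 1 pattern. Elane counts were 12, 123, 2, 148, 48, 67, 2, 46, 111 and 100, and Mpo counts were 0, 12, 0, 16, 0, 0, 2, 2, 5 and 36. The cells ranked 3 and 7 had 2 Elane UMIs each beside 72 and 59 of Ly6c2, and those ranked 2, 4 and 9 had 111 to 148 of Elane beside 2 to 15 of Ly6c2. With a minimum of 500 UMIs over both groups, 2903 genes could be compared for these 10 cells, of which 8.2% were at least 1.5-fold higher and 24.9% at least 1.5-fold lower, with a median of -0.17. Of 11 measured primary granule genes, 3 were higher and 6 lower there by that measure.

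Some genes of immature progenitors stood lower. Of 7 measured stem and progenitor genes none was at least 1.5-fold higher and 3 were that much lower, with a median of -0.49, where 10.2% of all genes were that much lower. Cd34 (chr1:194938819-194961279), a surface marker of progenitors, stood at 207 CPM (182 to 233) against 353 (343 to 365), a log2 ratio of -0.77 (-0.96 to -0.59). The level was lower where calprotectin was higher: Cd34 stood at 353 CPM in cells without a UMI, 295 in the intermediate cells, 270 in the cells with 1 to 3 UMIs, 133 in those with 4 to 19 and 28.9 in those over 40. The intermediate cells and those with 1 to 3 UMIs did not differ beyond their counting intervals. In these last 10 cells it had 5 UMIs, 1 in each of 5 cells. Kit, the stem cell factor receptor, had 2 UMIs in the high cells against 148, a log2 ratio of -3.05 (-6.11 to -1.17). After every cell was thinned to 10000 UMIs, Kit was found in 1 of 56 high cells (1.79%, 0.05 to 9.55) and in 54 of 459 cells without a calprotectin UMI (11.8%, 8.96 to 15.1). Unthinned, the shares were 3.33% and 25.4%. The intermediate cells had Kit at 14.4 CPM, close to the 13 CPM of the cells without a UMI. Meis1, a homeobox gene of the MLL-AF9 programme, did not follow. Its log2 ratio was 0.13 (-0.13 to 0.38) in the high cells and 0.14 (-0.58 to 0.77) in the 10 cells over 40 UMIs. Of 13 genes of that programme measured in those 10 cells, 4 were at least 1.5-fold lower and none higher, at a median of -0.48. The share of all genes that much lower there was 24.9%.

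**Figure D2:**
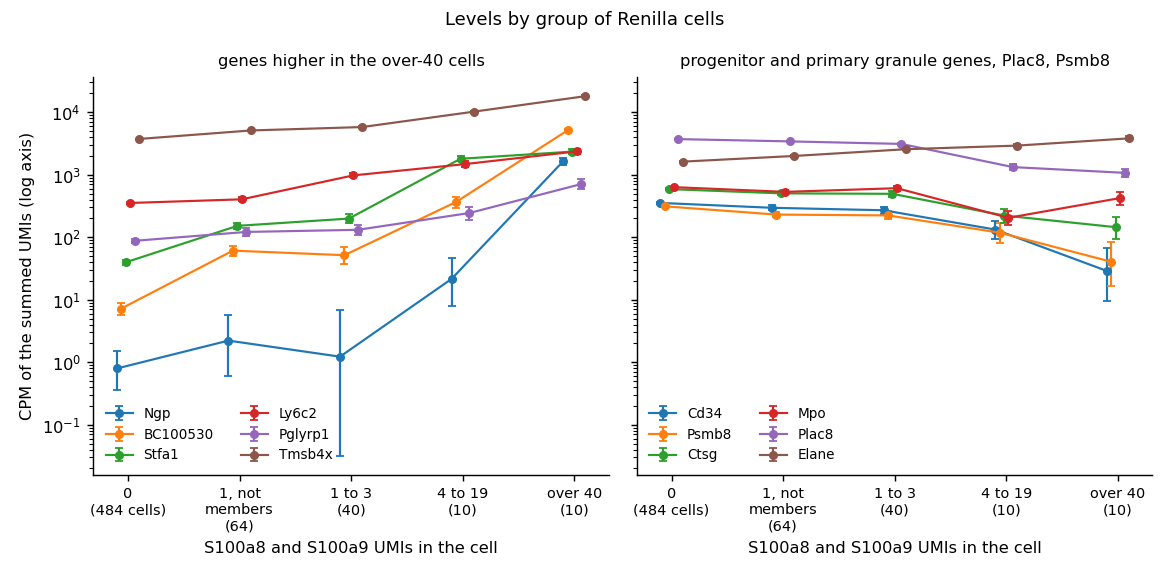
Levels (CPM of summed UMIs, log axis, with exact 95% Poisson intervals) of 12 genes in 5 groups of Renilla cells by their S100a8 and S100a9 UMIs. BC100530 went from 7.23 to 5118 CPM from the first group to the last, and Cd34 from 353 to 28.9.

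Other lower genes were spread over functions. Bcl2, an inhibitor of apoptosis, had 11 UMIs in the high cells, a log2 ratio of -1.89 (-2.91 to -1.04), and none in the 10 cells over 40 UMIs. It was the lowest of 23 measured genes of the MLL-AF9 programme, of which none was at least 1.5-fold higher and only Bcl2 was that much lower. Slc22a3, an organic cation transporter, was at -1.62 (-2.47 to -0.88), Itgb5, an integrin beta chain, at -1.46 (-2.25 to -0.76), and Oxct1, an enzyme of ketone body use, at -1.08 (-1.53 to -0.66). Psmb8, a subunit of the immunoproteasome, was at -0.83 (-1.03 to -0.64), and went from 312 CPM in cells without a UMI to 40.5 CPM in the cells over 40 UMIs. Crtc1, a CREB coactivator, had 80 UMIs in the cells without and 0 in the high cells. With that 0 set to a floor of 3 counts over the group it was 2.98-fold lower. The interval bound of its log2 ratio nearer to 0 was -1.24. The rest of the 15 were Strbp, Mul1, Wdr34, Alkbh8, Oaf, Spns1 and Zmym4, with log2 ratios from -2.21 to -1.06, and 3 to 42 UMIs each in the high cells. Of the 15 named, 13 were at least 2-fold lower, and 13 were without the 10 cells over 40 UMIs. None of the 15 was 2-fold lower when the top 20% of cells were taken, 1 was when cells were ranked by S100a9 alone, and 9 were when the score was not divided by the cell's total, though all 15 kept their sign.

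In the 10 cells over 40 UMIs some genes stood far lower that differed less over all 60 cells. Ifitm1, an interferon-induced membrane protein, had 1 UMI there, a log2 ratio of -5.34 (-10.65 to -2.87), against -0.13 in the cells with 1 to 3 UMIs. Hpgd, a prostaglandin-degrading enzyme, was at -3.52 (-5.80 to -1.97) with 3 UMIs, and Lat2, a signalling adaptor, had none. Srgn, the granule proteoglycan serglycin, was at -1.57 (-1.84 to -1.31). In the other direction Tmsb4x, an actin-sequestering thymosin, stood at 18050 CPM against 3731 and had 190 to 504 UMIs in each of the 10 cells. Hpgd, Lat2, Srgn and Tmsb4x, like Plac8, Npm1 and Cebpe elsewhere in the text, were chosen after their values were seen.

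Of 6 measured subunits and partners of the NADPH oxidase, which makes superoxide in phagocytes, 1 was at least 1.5-fold higher (Ncf4 at 0.93, 0.76 to 1.09) and none lower. In the 10 cells over 40 UMIs 4 of 6 were higher, with a median of 0.99, where 8.2% of all genes compared were that much higher. Cybb, the catalytic subunit, was below the count minimum with 15 UMIs against 8, and 9 of the 15 lay in those 10 cells. Of 11 measured Fc receptor and ITAM genes 4 were higher, led by Clec5a at 1.47 (0.62 to 2.26) and Fcgr4 at 1.31 (0.61 to 1.97). Of 19 measured myeloid transcription factor genes 4 were higher and 2 lower, with a median of 0.03. By the same measure 6.28% of all genes tested were higher and 10.2% lower in the high cells. The count of lower transcription factor genes was near that share. Cebpe, the C/EBP factor of late granulocyte maturation, was at 0.75 (0.63 to 0.86). Stat5a at -1.26 (-2.50 to -0.25) and Stat5b at -1.31 (-2.78 to -0.15), mediators of interleukin-3 signalling, were the 2 lower ones. They had only 8 and 6 UMIs in the high cells.

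Irf8, the transcription factor gene of monocyte and dendritic fate, split the high cells. It stood at 71.8 CPM against 39.0, a log2 ratio of 0.88 (0.54 to 1.21), but 81 of its 91 UMIs lay in 13 of the cells with 1 to 3 calprotectin UMIs. The 10 cells over 40 UMIs held 1, or 5.79 CPM. Ribosome biogenesis genes were uneven too. None of 20 was 1.5-fold apart over all high cells, at a median of -0.30. In the 10 cells over 40 UMIs 14 of 19 were at least 1.5-fold lower, at a median of -0.83. Npm1 was among them at -1.18 (-1.44 to -0.93), and 24.9% of all genes compared there were that much lower.

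Proliferation genes differed little over all 60 high cells and more within them. Of 42 S phase genes 1 was at least 1.5-fold higher and 2 lower, and of 52 G2/M genes 2 were higher and 2 lower, with medians of -0.09 and -0.05. In the 10 cells over 40 UMIs 9 of 28 S phase genes were lower and 1 higher, at a median of -0.33. There 5 of 31 G2/M genes were higher and 2 lower, at 0.18. Of all genes compared in those 10 cells 24.9% were lower and 8.2% higher, at a median of -0.17. The S phase count of lower genes was not far from that share. Over all 60 high cells the shares of all genes were 6.28% higher and 10.2% lower. The G2/M median was 0.28 in the cells with 4 to 19 UMIs and -0.20 in those with 1 to 3. Phases called from these lists after thinning put 17.9% of 56 high cells in G1 (8.91 to 30.4), 42.9% in S (29.7 to 56.8) and 39.3% in G2/M (26.5 to 53.2). For 459 cells without a calprotectin UMI the shares were 11.3%, 43.1% and 45.5%, within those intervals. Of the 10 cells over 40 UMIs, 1 was called G1, 3 S and 6 G2/M.

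**Figure D3:**
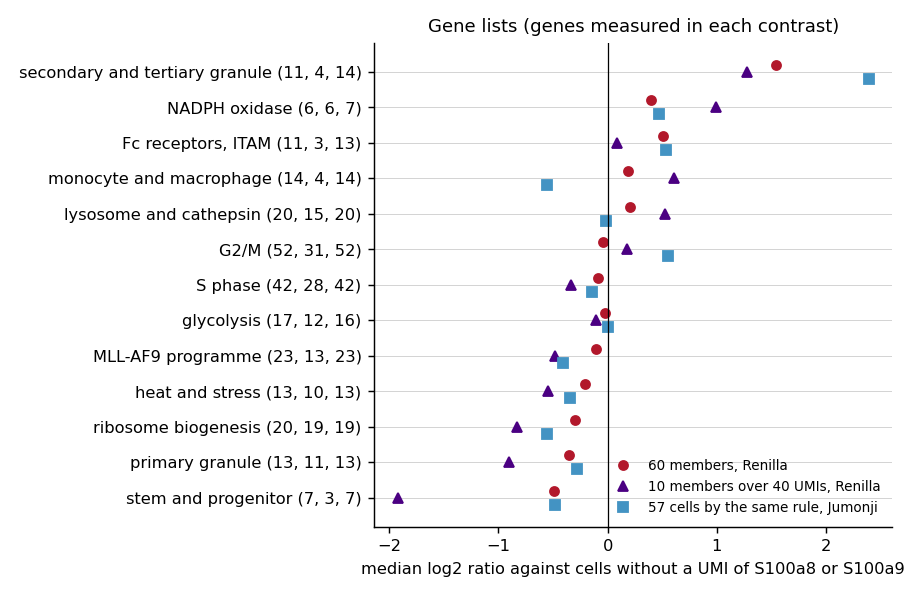
Median log2 ratio of 13 gene lists against cells without a UMI of S100a8 or S100a9, for the 60 high Renilla cells (members, circles), the 10 of them over 40 UMIs (triangles) and the 57 Jumonji cells chosen by the same rule (squares). Counts of genes measured in each are in brackets, and the secondary and tertiary granule list was the highest and the stem and progenitor list the lowest for the circles.

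By their other genes, the cells over 40 UMIs had more high cells around them than the cells with 1 to 3. When the 15 nearest neighbours of each cell were found from principal components of variable genes without S100a8 and S100a9, 21.7% of the neighbours of the high cells were high cells, against 4.55% for the cells without a UMI. The share was 64.7% for the 10 cells over 40 UMIs, 29.3% for those with 4 to 19 and 9.0% for those with 1 to 3. Cells over 40 UMIs themselves made up 28.7% of the neighbours of those 10 cells. High cells were 9.87% of all kept cells, so the cells with 1 to 3 UMIs lay near that share. The high cells with 1 UMI had 4.24% high cells among their neighbours, and the intermediate cells 8.1%. Cells were also ranked by other genes. The top 60 by Ly6c2 held 20 of the high cells (33.3%), 6 of them over 40 UMIs, and the top 60 by Elane and Prtn3 held 15 (25%), 5 of them over 40 UMIs. The top 60 by Mpo and Ctsg held 6 (10.0%) and the top 60 by Cd34 held 2 (3.33%), none of them over 40 UMIs.

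Markers of other cell types were measured in the same cells. All 5 promyelocyte markers were present, summing to 6594 CPM in the high cells and 5019 in the cells without a UMI, with single cells ranging from 667 to 14481 and from 77.8 to 19918 CPM. Of 7 monocyte and macrophage markers 1, Cx3cr1, was at 0 in the high cells. They summed to 1333 CPM (0 to 4898 over single cells) against 428 (0 to 3349), of which Ly6c2 gave 1274 and 353. Csf1r had 2 UMIs and F13a1 had 1. All 6 dendritic and all 4 lymphoid markers were at 0. The eosinophil markers summed to 20.5 CPM (0 to 144 over single cells) against 35.7 (0 to 1907), with none at 0. Of 5 basophil or mast cell markers 3 were at 0 (Prss34, Fcer1a and Ms4a2), and the sums were 15 CPM (0 to 1259) and 16.9 (0 to 745). All 17 UMIs of Cpa3, a protease gene of mast cells and basophils, came from 1 high cell. Megakaryocyte markers summed to 7.1 CPM (0 to 74.1) with Pf4 and Ppbp at 0, against 7.4 (0 to 386). The part of these cell types in the differences above was not tested. Scrublet, a doublet caller, marked 9 Renilla cells (1.48%), none of them a high cell.

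The same rule was applied to the Jumonji library, whose cells the Renilla ranking did not use and with which it shared 0 barcodes. The rule chose 57 of 575 cells with 24 to 728 UMIs of the pair, against 1 to 381 in Renilla. Cells over 40 UMIs were 56 of 575 in Jumonji (9.74%, 7.44 to 12.5) and 10 of 608 in Renilla (1.64%, 0.79 to 3.0), so a fixed top 10% took much stronger cells in Jumonji. S100a9 gave 42.1% of the pair's UMIs in the Jumonji cells (41.1 to 43.1), against 42.4% in the 10 Renilla cells over 40 UMIs. With 1 library of each kind, guide and library cannot be told apart.

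Of 7800 Jumonji genes tested, 228 (2.92%) were at least 2-fold higher and 498 (6.38%) at least 2-fold lower than in the 299 Jumonji cells without a UMI. Among 7665 genes tested in both libraries, 107 were 2-fold higher in Renilla, and 57 of these (53.3%) were 2-fold higher in Jumonji as well, or 29.1% of the 196 called there. Over all 7665 genes 2.56% were called higher in Jumonji. Of 156 genes 2-fold lower in Renilla, 33 (21.2%) were 2-fold lower in Jumonji, or 6.99% of 472, against 6.16% of all genes. In the opposite direction there were 1 and 2. Across 3962 genes with at least 200 UMIs in each library, the log2 ratios had a Pearson r of 0.63, given as a description, since genes are not independent and both contrasts were chosen on the same pair.

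**Figure D4:**
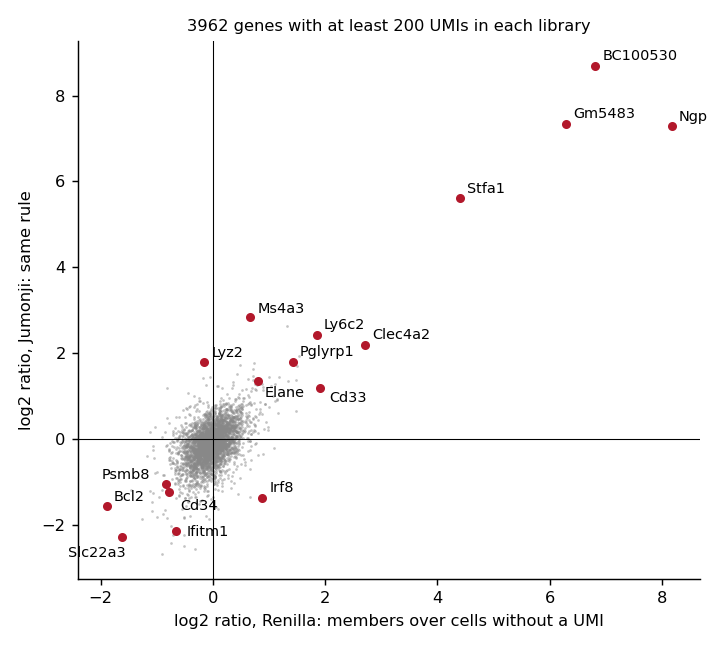
Log2 ratio of CPM, cells chosen by the S100a8 and S100a9 share over cells without a UMI, in the Renilla library (x axis) and the Jumonji library (y axis) for 3962 genes. BC100530, Gm5483, Ngp and Stfa1 lie at the top right in both, and Irf8 is higher in Renilla and lower in Jumonji.

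Most of the leading genes stood high in both libraries. In Jumonji, Ngp had a log2 ratio of 7.29 (6.60 to 8.09), BC100530 of 8.69 (8.36 to 9.05), Stfa1 of 5.61 (5.39 to 5.84), Camp of 5.88 (4.56 to 7.57) and Ly6c2 of 2.44 (2.32 to 2.55). Elane was at 1.36 (1.26 to 1.46) and Cd34 at -1.22 (-1.39 to -1.05). Some levels set the libraries apart. Lcn2 stood at 194 CPM in the Jumonji high cells and at 86.8 CPM in the 10 Renilla cells over 40 UMIs, whereas Camp stood at 46.5 and 1158 CPM, most of the latter from 1 cell. Lyz2 had a log2 ratio of 1.80 (1.64 to 1.96) in Jumonji and -0.16 over all Renilla high cells. In the 10 Renilla cells over 40 UMIs it was higher, at 0.86 (0.16 to 1.48). Irf8 was lower in Jumonji, at -1.36 (-1.81 to -0.94), as in the 10 Renilla cells over 40 UMIs and unlike the Renilla high cells as a whole. Kit, at -0.48 (-1.74 to 0.58) in Jumonji, had an interval there that held 0.

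The median of each granule list had the same sign in both libraries. Of 14 secondary and tertiary granule genes measured in Jumonji 11 were at least 1.5-fold higher and none lower, at a median of 2.39. Of all genes 9.13% were that much higher and 16.5% that much lower. Ngp, Camp and Wfdc21 had 17, 5 and 14 UMIs in the Jumonji cells without a UMI of the pair. They too reached the count minimum only through the chosen cells. Of 13 primary granule genes 5 were higher, Elane and Ms4a3 among them, and 6 lower, at a median of -0.28. Of 19 ribosome biogenesis genes 9 were lower, at a median of -0.56. G2/M genes were higher for 24 of 52 in Jumonji, at a median of 0.55, against 2 of 52 in the 60 Renilla cells at -0.05 and 5 of 31 in the 10 of them over 40 UMIs at 0.18. The monocyte and macrophage list had a median of -0.56 in Jumonji and 0.18 in Renilla. None of these differences between the libraries was tested.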

How the data were processed

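Single-cell RNA was measured in 1 Renilla and 1 Jumonji library by droplet barcoding of 3′ ends (10x Genomics Chromium, v2 kit), per the labels' protocols. The authors deposited raw UMI counts per gene and barcode, made with Cell Ranger 1.3.1 on mm10 per the submitters' processing notes. The annotation release and the cell-calling rule were not given in the sources used here. Of 27998 gene identifiers, 27645 were found in GENCODE M21, which gave the coordinates (1-based). The matrices held 651 Renilla and 652 Jumonji barcodes. Those with at least 500 genes and at most 10% of UMIs in genes whose symbol starts with mt- were kept, which left 608 and 575 cells with 14418743 and 12809661 UMIs and medians of 23528 and 22123 UMIs per cell. Every excluded barcode failed on its mitochondrial share.

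UMIs were summed over a group of cells and scaled to CPM. Log2 ratios carry the exact conditional binomial interval, sums the exact Poisson interval and shares the Clopper-Pearson interval, at 95%. A count of 0 was set to a floor of 3 over the group. Genes were called by size, at least 2-fold apart (lists 1.5-fold) with at least 50 UMIs over both groups, or 500 for the 10 cells over 40 UMIs. S100a8 and S100a9 were left out of all counts of genes. The text names 15 genes each way, ranked by the distance of the nearer interval bound from 0, leaving out symbols that start with mt-, Rpl, Rps or Gm, and for each of the lists described the 2 highest and 2 lowest genes and those 2-fold apart, beside the cell type markers. The 29 lists hold 506 genes. The members and lists were chosen with earlier results of these data known. Doublets were marked with Scrublet and kept. Phases and neighbours were computed with scanpy 1.11.5 (2000 variable genes, 30 components, 15 neighbours). The ratio and its interval were tested on counts simulated with Poisson error alone, the error the interval assumes. Spread between cells was not simulated. Promoter sequences are from RefSeq (GRCm38.p6). Erythroid markers are not reported here.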

Additional observations from a re-analysis of the deposited data

Results flagged for a closer look

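Calprotectin RNA was also found in Renilla barcodes that the cell filter removed. Of 43 excluded barcodes, 5 carried a UMI of S100a8 or S100a9, and all 5 had a share at or above that of the last cell taken. They were looked at because they lie outside the comparison. Of their 231 UMIs, 227 came from 1 barcode with 4828 UMIs in all, or 47017 CPM, which is above the highest share among the kept cells (20542 CPM). Its mitochondrial share of 11.4% was just over the limit of 10%. It held 12 UMIs of Ngp, 15 of Camp, 3 of Lcn2, 37 of BC100530, 15 of Stfa1, 4 of Elane and none of Cd34, Mmp8, Ltf or Retnlg. Without this barcode the excluded barcodes stood at 16.1 CPM for the pair.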

How the results depend on the processing

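No paired analysis was possible because each kind of cell had 1 library. Of the alternatives to the named genes, 1900 values stayed within their counting interval, 213 moved beyond it with the same sign and 5 changed sign. The cause was not tested. Taking the top 5% of cells in place of 10% gave 280 genes at least 2-fold higher and 762 lower, a secondary and tertiary granule median of 2.03, a share of higher genes also higher in Jumonji of 40.9%, and an Irf8 log2 ratio of -0.56. The top 20% gave 52 and 92 genes, a primary granule median of -0.19 and a share of 70.7%. Ranking by S100a9 alone (48 cells) gave a primary granule median of -0.20 and turned Stat5a to 0.17, Irf8 to -0.53, Csf2rb2 to -0.13 and Rac1 to 0.18. Against all other kept cells the share was 40.7%, and with the mean of each cell's CPM the primary granule median was -0.21. A minimum of 20 UMIs gave 279 and 525 genes and a secondary median of 2.5, and a minimum of 200 gave 30 and 45 genes and a share of 72.0%, since the minimum sets how many genes are compared. Leaving out the 10 cells over 40 UMIs was an alternative chosen after seeing the data. It gave a secondary median of 0.87, over fewer measured genes, and a share of 87.0%. The same cut was made in Jumonji, where it left only 1 chosen cell with 24 UMIs of the pair and 1 with 40. With so few cells, a 0 set to the floor of 3 counts can itself be called higher. That share therefore cannot be set beside the others. Those 10 cells alone, at their minimum of 500 UMIs, gave a primary median of -0.90 over 11 genes and a stem and progenitor median of -1.92 over 3. All 60 high cells had 13 and 7 genes measured. The -1.92 is the value of 1 gene, Cd93, which had 3 UMIs in the 10 cells. Another thinning draw found Kit in 0% of high cells. Unthinned, 25% of the high cells were called S and 55% G2/M. The shares of the cells without a calprotectin UMI moved too, to 32.6% and 55.2%. Genes with few UMIs set the limit of these comparisons.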

Other observations

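Other gene groups were measured in the 60 S100a8/S100a9-high cells. Of 20 measured lysosome and cathepsin genes 3 were at least 1.5-fold higher and none lower, at a median log2 ratio of 0.21, and of 17 glycolysis genes none was 1.5-fold apart, at -0.02. Of 14 genes of inflammatory NF-kB signalling 5 were higher and 2 lower, at 0.26. Integrin and adhesion genes leaned lower, with 4 of 13 lower and 1 higher at -0.20. Heat and stress genes had 1 of 13 lower over all high cells and 5 of 10 lower in the 10 cells over 40 UMIs, at a median of -0.54. Over all genes, 6.28% were at least 1.5-fold higher and 10.2% lower in the high cells, and 8.2% and 24.9% in those 10 cells.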
